A study of Mus musculus with 10 samples.

Results

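The genes of the cytosolic ribosomal proteins were followed across 10 RNA libraries of tumour-infiltrating CD8 T cells. Members were all protein-coding genes of the mouse annotation whose symbol begins with Rpl or Rps and a digit, with Rpsa, Rplp0, Rplp1 and Rplp2, and without the S6 kinases and the symbols marked as pseudogenes. The rule found 86 of 54337 genes, of which 46 encode proteins of the large subunit and 31 proteins of the small subunit. A further 9 are paralogs or relatives that share the naming. Fau, which encodes a ribosomal protein fused to a ubiquitin-like protein, falls outside the rule and is given beside it. Measured values took no part in choosing the members.

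All cells were CD8 T cells with a transgenic receptor for P1A, an antigen of P511, a mast cell tumour (mastocytoma). They were activated for 24 h, transduced with a retroviral vector and given 24 h later to Rag1-/- B10D2 mice carrying P511 tumours, and CD8 cells were sorted from the tumours 7 days after transfer. The vector encoded eGFP alone (the control, libraries 3, 6 and 7), NFAT5, a transcription factor known for the response to osmotic stress (libraries 1, 5 and 8), or NFAT1 CA-RIT, an NFAT1 that is constitutively active and cannot pair with AP-1 (libraries 2, 4, 9 and 10, here called CA-RIT NFAT1). The labels name C57BL/6 as the strain, while the recipients are described as B10D2 mice, whose Rag1 loss leaves them without T and B cells of their own. Both factors were overexpressed from a vector, and the age of the animals is not given in the sources used here. No label ties the libraries to different animals, and the p-values given here therefore reflect the variation among these libraries alone, which may be technical.

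Cytosolic ribosomal proteins assemble with ribosomal RNA into the small subunit, which reads the message, and the large subunit, which forms the peptide bond. Because every ribosome needs the proteins in fixed proportion, their genes are among the most evenly and abundantly transcribed of a growing cell, and T cells raise ribosome production when they are activated. Most of their messages begin with a 5′ terminal oligopyrimidine (TOP) tract, a C at the cap followed by a run of pyrimidines, through which the kinase complex mTORC1 and the RNA-binding protein LARP1 control their translation. A count of RNA does not measure translation.

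Depth ran from 18.8 to 36.5 M estimated reads in 9 libraries, and eGFP control 7 held 51104. The defining CD8 markers were present in 8 libraries, with Cd8a between 582 and 988 CPM (the estimated reads of a gene as a share of the library's matched total). CA-RIT NFAT1 10 went against its label, with Cd8a at 0.0308 CPM and the 9 CD8 T cell markers at a summed 217 CPM against 21612 to 34337 CPM, while 14 mast cell and P511 markers summed to 5155 CPM against 58.3 to 272 CPM and 12 macrophage and monocyte markers to 4375 CPM against 65.7 to 228 CPM. In the same library 7 mast cell and P511 markers and 0 macrophage markers were at 0. The comparisons therefore rest on 8 libraries (2 eGFP control, 3 NFAT5 and 3 CA-RIT NFAT1), and values with all 10 are given beside them.

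The start-site sequences show which members carry an annotated TOP tract. RefSeq promoter windows on GRCm38.p6 were found for 66 members, and 14 of them (21.2%) had a C at the annotated start followed by at least 4 pyrimidines (C or T), read on the strand of the gene. Of 27025 genes in the table, 813 (3.01%) had the same. When the tract could begin within 2 bases of the annotated start, the shares were 33.3% of members and 10.6% of all genes. The windows below belong to members whose values are described later, and they run from 15 bases before the start to 15 bases from the start onward. The first capital is the annotated start, and the capitals mark the unbroken run of pyrimidines from it.
Rpl35 (chr2:39005117-39005146, minus strand): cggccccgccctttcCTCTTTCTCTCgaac
Rps6 (chr4:86857353-86857382, minus strand): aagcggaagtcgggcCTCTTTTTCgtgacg
Rpl28 (chr7:4792950-4792979, plus strand): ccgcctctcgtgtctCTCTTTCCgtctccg
Rplp2 (chr7:141447636-141447665, plus strand): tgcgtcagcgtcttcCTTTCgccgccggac
Rps18 (chr17:33955651-33955680, minus strand): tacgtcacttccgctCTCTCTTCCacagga
Rps21 (chr2:180257364-180257393, plus strand): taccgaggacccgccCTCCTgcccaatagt
Rps27 (chr3:90213634-90213663, minus strand): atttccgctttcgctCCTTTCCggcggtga
Rps27rt (chr9:114982725-114982754, minus strand): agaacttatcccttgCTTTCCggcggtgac
The run is 11 bases in Rpl35, 9 in Rps6 and Rps18, 8 in Rpl28, 7 in Rps27, 6 in the retrogene Rps27rt and 5 in Rplp2 and Rps21. Rpl15, not printed, had the longest run among the 14, at 13 bases. These matches describe letters at an annotated position, and the start used in these cells was not measured.

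Between 2.51% and 4.02% of the reads fell on the members in the 8 libraries. The share was 4.02% in eGFP control 3 and 2.85% in eGFP control 6. With NFAT5 it was 2.76%, 3.35% and 3.67% in libraries 1, 5 and 8. With CA-RIT NFAT1 it was 2.51%, 2.72% and 3.69% in libraries 2, 4 and 9. Every group thus held both low and high libraries. The group means were 3.43% ± 0.823 for eGFP (SD, n = 2), 3.26% ± 0.462 for NFAT5 (n = 3) and 2.97% ± 0.632 for CA-RIT NFAT1 (n = 3), and they lay closer together than the libraries within a group. CA-RIT NFAT1 10 had 2.72%, inside the range of the 8 libraries although its markers were not those of CD8 T cells. In TPM, which scales for transcript length, the group means were 6.89% ± 0.834, 7.19% ± 0.47 and 6.67% ± 1.1 in the same order. In bulk RNA, fewer cells of a type and less RNA per cell cannot be told apart.

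**Figure D1:**
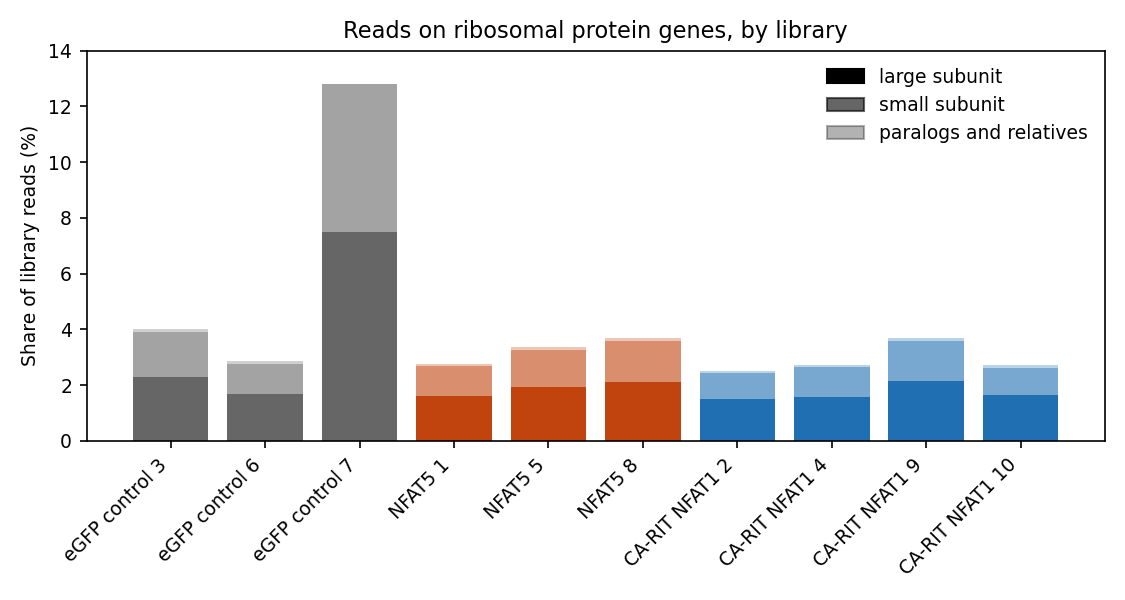
Share of each library's estimated reads (%, vertical axis) on the large subunit, small subunit and paralog genes, stacked, for the 10 libraries coloured by vector group. Bars are single libraries without error bars; the groups overlap between 2.51% and 4.02%, and eGFP control 7, with 51104 reads, stands at 12.8%.

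Ranked by TPM averaged over the 8 libraries, the highest members included Rpl41, which encodes the shortest ribosomal protein, at 2997, Rps19, whose human counterpart is mutated in Diamond-Blackfan anaemia, at 2530, Rpl32 at 2311 and Rpl13 at 2005. The lowest members with a mean of at least 5 CPM were Rpl12 at 22.6 TPM, Rpl5 at 28.2 TPM and Rps19bp1, a relative whose product binds Rps19, at 30.6 TPM. Rpl12 and Rpl5 are core proteins of the large subunit, and a ribosome holds as many copies of them as of most others, so their rank is taken up again with the pseudogenes. Rpl10l and Rpl3l, paralogs known from testis and from muscle, had 0 reads in each of the 8 libraries and did not pass the low-count filter, which left 84 members. Rpl39l, the testis paralog of Rpl39, reached 1.20 CPM in library 3 of the eGFP group, 0.461 CPM in CA-RIT NFAT1 9 and 0.121 CPM in NFAT5 1, and had 0 reads in the other 5.

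Member genes moved together from library to library. Over the 83 members with a mean of at least 5 CPM, the median pairwise correlation of log2(CPM + 1) across the 8 libraries was 0.83, with 99.8% of pairs positive. The same median was 0.73 for 77 mitochondrial ribosomal protein genes and 0.03 for all 9298 genes at that level. The points share library, depth and total reads, and the correlations are descriptions. A shift common to all members in a library held 73.6% of their variance. Removing it lowered the median SD of a member from 0.29 to 0.13 on the log2 scale.

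That common shift did not follow the vector. The median member stood at 0.28 above its own mean in eGFP control 3 and 0.15 below it (-0.15) in eGFP control 6, on the log2(CPM + 1) scale. With NFAT5 the values were -0.19, 0.12 and 0.28 in libraries 1, 5 and 8, and with CA-RIT NFAT1 they were -0.37, -0.20 and 0.24 in libraries 2, 4 and 9. None of the 83 members was above its mean in CA-RIT NFAT1 2, and 80 were in library 9. Of the 83, 38 had their highest value in eGFP control 3, 22 in NFAT5 8, 19 in CA-RIT NFAT1 9 and 4 in NFAT5 5. For 64 members the lowest value fell in CA-RIT NFAT1 2, and for 15 it was that of library 4 of the same group. The highest library of a member exceeded its lowest by a median of 1.77-fold, and by less than 2-fold in 67 of 83.

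**Figure D2:**
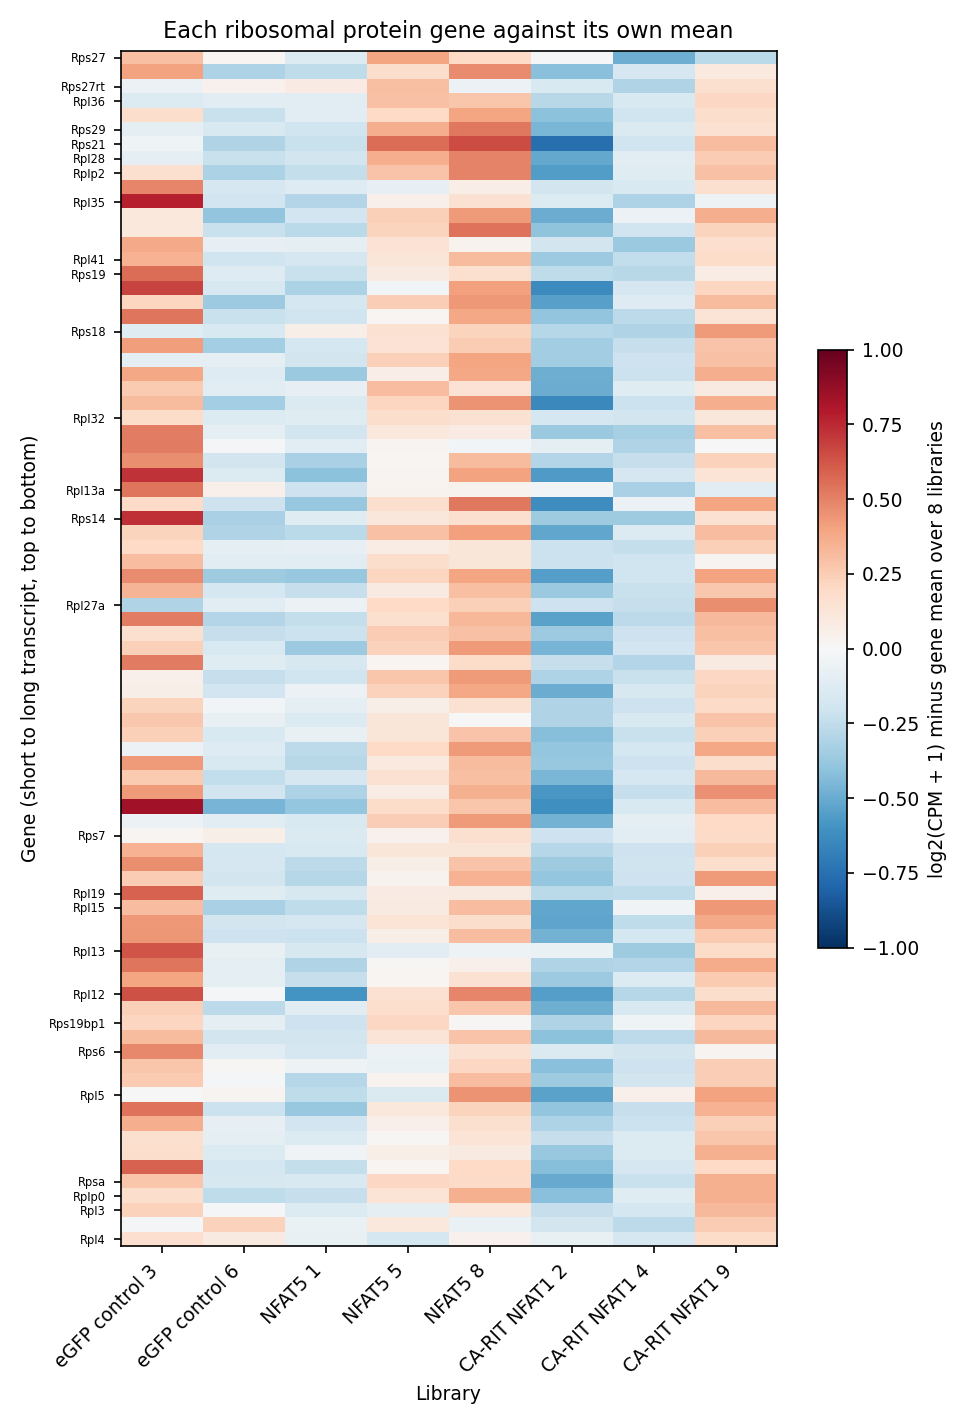
Each row is 1 of the 83 ribosomal protein genes averaging 5 CPM or more, ordered by transcript length with some rows named, and each column 1 of 8 libraries; colour gives log2(CPM + 1) minus the gene's mean over the 8 libraries. The columns of eGFP control 3, NFAT5 5, NFAT5 8 and CA-RIT NFAT1 9 are mostly above the mean and the other 4 mostly below it.

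Individual members differed in how far they moved. Rps27a, which encodes a ubiquitin fused to a small subunit protein, varied most, with an SD of 0.49 and a 2.74-fold range. It was at 423 and 171 CPM in eGFP control 3 and 6, at 181, 269 and 287 CPM in NFAT5 1, 5 and 8, and at 154, 213 and 293 CPM in CA-RIT NFAT1 2, 4 and 9. The high eGFP value stood alone and the other 7 overlapped between groups. Rps21 (SD 0.47) and Rpl12 (SD 0.45) followed. Rpl4 and Rps7, with an SD of 0.14 each, and Rpl32, with 0.17, varied least. Rpl32 stayed between 641 and 824 CPM, a 1.29-fold range.

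The order of the libraries by this shift was close to the reverse of their order by the length of the transcripts sequenced. Ribosomal protein transcripts are short, with a median of 585 bases over the 84 members against 1898 bases over all 14473 genes tested. Weighted by reads and without the members, mean transcript length was 1552 bases in eGFP control 3, 1798 in NFAT5 8, 1841 in CA-RIT NFAT1 9 and 1851 in NFAT5 5, the libraries with members above their mean. It was 1897 bases in eGFP control 6, 2069 in NFAT5 1 and, with CA-RIT NFAT1, 1972 in library 4 and 2002 in library 2, the libraries with members below. Non-member genes shorter than 1000 bases took 32.6% of non-member reads in eGFP control 3 and 19.3% to 24.5% in the other 7. The part of length in the members' shift was not tested.

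**Figure D3:**
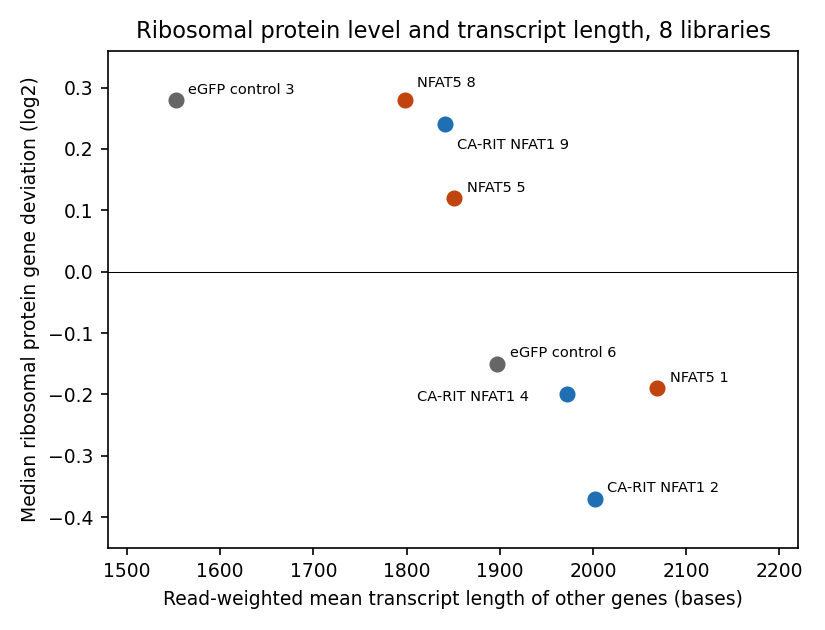
For each of 8 libraries, the median deviation of the ribosomal protein genes from their own means (log2 scale, vertical axis) is plotted against the read-weighted mean transcript length of all other genes (bases, horizontal axis, which does not start at 0). The 4 libraries with a positive deviation have lengths from 1552 to 1851 bases, and the 4 with a negative deviation 1897 to 2069 bases.

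In the comparison of NFAT5 with eGFP, which asks what added NFAT5 changed in these cells, no member passed the test. With edgeR's quasi-likelihood test, 0 of 84 members and 0% of the 14473 genes tested had an adjusted p below 0.05. At an unadjusted p below 0.05 there were 0 members, against 7.26% of all genes. DESeq2, which called 130 genes in all, and limma voom, which called 0, also called 0 members, with 0 members each at an unadjusted p below 0.05, against 7.63% and 6.29% of genes. The median log2 fold change of the members was -0.15 (quartiles -0.28 and 0.02), with 22 of 84 positive, and that of all genes was 0.08, with 53.9% positive. Large subunit genes had a median of -0.13 (15 of 46 positive), small subunit genes -0.13 (6 of 31) and paralogs and relatives -0.22 (1 of 7). Dropping TMM scaling moved the all-gene median by 0.098 here and by 0.113 with CA-RIT NFAT1, and the member median minus the all-gene median was then -0.21 and -0.38, against -0.23 and -0.40 with TMM.

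The members with the smallest p on the lower side included Rpl13a, Rpl13, Rpl35 and Rpl4, of the large subunit. Rpl13a (chromosome 7, 45125558 to 45128761, minus strand), whose protein is also known for silencing inflammatory messages in macrophages, was at 766 and 548 CPM in eGFP control 3 and 6 and at 459, 542 and 542 CPM in NFAT5 1, 5 and 8. The groups did not overlap, although the lower control and the upper NFAT5 libraries were 548 and 542 CPM. Its log2 fold change was -0.47 ± 0.23 (SE, edgeR adjusted p = 0.654). Rpl35 (chromosome 2, 39001580 to 39005624, minus strand), with the long tract shown above, was at 618 and 316 CPM with eGFP and at 295, 374 and 402 CPM with NFAT5, so a control lay within the NFAT5 range (-0.51 ± 0.32). Rpl13 had -0.55 ± 0.27 and Rpl4, a long protein lining the exit tunnel, -0.31 ± 0.20.

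On the higher side stood Rps21, Rps29, Rpl28, Rpl27a and Rpl36. Rps21 (chromosome 2, 180257377 to 180258445, plus strand), with a short tract of 5 bases, was at 85.3 and 71.3 CPM with eGFP and at 75.1, 130 and 139 CPM with NFAT5. NFAT5 5 and 8 were above both controls and NFAT5 1 lay between them, a log2 fold change of 0.44 ± 0.40 (adjusted p = 0.735). Rps29 had 0.28 ± 0.29, Rpl28 0.31 ± 0.32, Rpl27a 0.24 ± 0.28 and Rpl36 0.19 ± 0.24. In CPM, 3 members were higher with NFAT5 in every library than in either control (Rpl27a, Rpl36 and Rps18), against 14.2% of all genes. On the other side 2 were lower without overlap (Rpl13a and Rpl4), against 8.15% of all genes. Rpl27a was at 60.1 and 68.9 CPM with eGFP and at 71.4, 85.3 and 87.9 CPM with NFAT5.

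The direction of the members as a group turned on which control was used. Without eGFP control 3 the median log2 fold change was 0.22, with 77 of 84 positive, beside 0.05 over all genes. Without eGFP control 6 it was -0.40, with 10 positive, beside 0.45 over all genes. Each of these fits has a single control, assumed to vary like the other groups. Without eGFP control 6, edgeR called 4 members lower, against 20.6% of 16011 genes called. Among them were Rpl35 (-0.95, edgeR adjusted p = 0.0269), Rpl13 (-0.90) and Rpl13a (-0.74). Without NFAT5 1 the median was -0.01. Markers of other cells overlapped between the groups in their summed levels, with macrophage and monocyte markers at 116 and 213 CPM with eGFP and at 65.7 to 189 CPM with NFAT5, and mast cell and P511 markers at 58.3 and 263 CPM and at 152 to 272 CPM. Of the 12 macrophage markers, 3 were higher with NFAT5 without overlap (14.2% of all genes), among them Lyz2 with 0 reads in both controls and 12.6 to 67.4 CPM with NFAT5. Lower without overlap was 1 (8.15% of all genes), Cd68, at 90 and 108 CPM with eGFP and at 44.5 to 78.9 CPM with NFAT5. With CA-RIT NFAT1, 2 were higher than in the controls without overlap (14.2% of all genes), Lyz2 among them at 12.2 to 53.7 CPM, and 0 lower. The summed CD8 T cell markers did not overlap, at 34337 and 29097 CPM with eGFP, 21612 to 22979 CPM with NFAT5 and 23860 to 26200 CPM with CA-RIT NFAT1. Most of this sum is Trbc2, and without it the values were 8724 and 6733 CPM with eGFP, 5773 to 6578 CPM with NFAT5 and, overlapping the controls, 5714 to 6894 CPM with CA-RIT NFAT1. Of the 9 single markers, 4 were lower with NFAT5 without overlap (8.15% of all genes) and 0 higher, and Cd8a overlapped, at 988 and 629 CPM with eGFP and 585 to 665 CPM with NFAT5. With CA-RIT NFAT1, 3 were lower than in the controls without overlap (6.67% of all genes) and 0 higher. The part of any of these in the members' values was not tested. With a trend with transcript length removed by an offset, the median was 0.15, beside 0.11 for all genes other than members. Over all 10 libraries the median was 0.06, beside 0.16 for all genes, with 0 members called. At an unadjusted p below 0.05 stood 7 members, against 2.71% of genes, each with its highest CPM in eGFP control 7.

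In the comparison of CA-RIT NFAT1 with eGFP, which asks the same of an NFAT1 without its AP-1 partner, the members lay lower and none passed. The median log2 fold change was -0.30 (quartiles -0.42 and -0.18), with 2 of 84 positive, beside 0.10 over all genes, with 54.6% positive. Again 0 members and 0% of genes had an adjusted p below 0.05 in edgeR, and DESeq2 and voom called 0 members (0.459% and 0% of genes). At an unadjusted p below 0.05 stood 1 member in each, against 6.92% of genes in DESeq2 and 6.60% in voom. In edgeR the same unadjusted count was 2 of 84, Rpl13a among them, against 6.44% of all genes. This comparison shares its control libraries with the one before, so the lists of leading members are not independent. Large subunit genes had a median of -0.27 (1 of 46 positive), small subunit genes -0.33 (1 of 31) and paralogs and relatives -0.35 (0 of 7).

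Rpl13a was at 519, 422 and 492 CPM in CA-RIT NFAT1 2, 4 and 9, each below both controls (766 and 548 CPM), with a log2 fold change of -0.60 ± 0.23 (edgeR, adjusted p = 0.679). Rps27 (chromosome 3, 90212522 to 90213651, minus strand), which encodes a zinc-finger protein of the small subunit, was at 110 and 90.1 CPM with eGFP and at 87.8, 63.1 and 73.7 CPM with CA-RIT NFAT1, without overlap (-0.55 ± 0.26). Rpl35 had -0.68 ± 0.32 and Rpl19 -0.57 ± 0.27. On the higher side the values were 0.13 ± 0.28 for Rpl27a and 0.00 ± 0.33 for Rps18.

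In CPM, 0 members were higher without overlap (14.2% of all genes) and 2 were lower, Rpl13a and Rps27 (6.67% of all genes). Without eGFP control 3 the median was 0.03, with 52 of 84 positive, beside 0.05 over all genes. Without eGFP control 6 it was -0.57, with 1 positive, beside 0.49 over all genes. In the latter fit edgeR called 9 members lower, against 21.3% of all genes. Among them were Rpl35 (-1.12, adjusted p = 0.0137), Rps14 (-1.08), Rpl19 (-0.93), Rps19 (-0.88), Rpl13 (-0.87), Rpl13a (-0.86), Rpl18 (-0.83) and Rps6 (-0.76). Without CA-RIT NFAT1 9 the median was -0.52 and without CA-RIT NFAT1 2 it was -0.15. With the length trend removed it was 0.13, with 65 of 84 positive, beside 0.13 for all genes, with 58.1% positive. Over all 10 libraries it was -0.16, beside 0.19 for all genes, with 0 members called and 8 at an unadjusted p below 0.05, against 4.42% of genes.

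**Figure D4:**
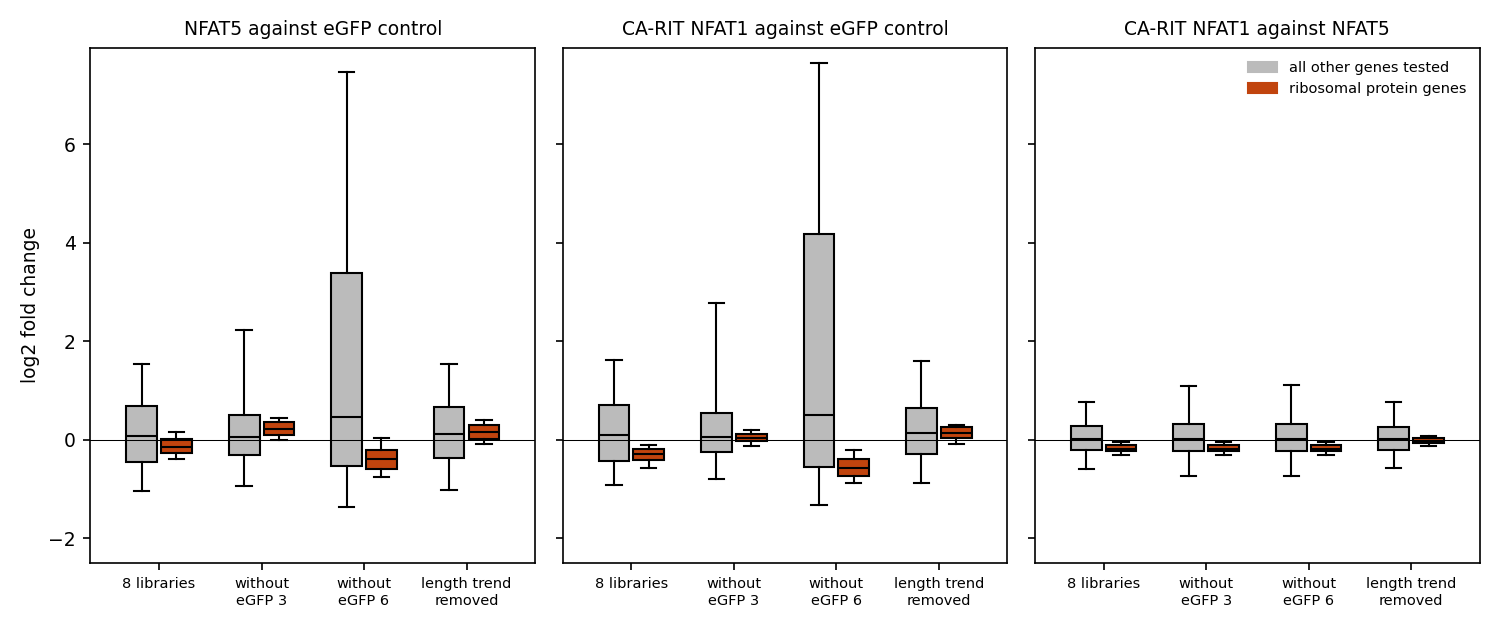
Log2 fold changes of ribosomal protein genes and of all other genes tested in the 3 comparisons, over 8 libraries, without eGFP control 3, without eGFP control 6 and with the length trend removed; boxes span the quartiles, lines the medians and whiskers the 10th to 90th percentiles. In the panel of NFAT5 against eGFP the member median goes from -0.15 to 0.22, -0.40 and 0.15.

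CA-RIT NFAT1 against NFAT5 sets the factors side by side and uses no control. Here too 0 members and 0% of genes passed in edgeR, 0 members had an unadjusted p below 0.05 (1.13% of genes), and DESeq2 and voom called 0 members (0.0138% and 0% of genes). At an unadjusted p below 0.05 stood 0 members in DESeq2, against 1.30% of genes, and 5 of 84 in voom, against 6.83%. The median of the members was -0.18 (quartiles -0.24 and -0.11), with 5 of 84 positive, beside 0.00 over all genes. No member had groups without overlap, in either direction, against 4.06% of genes higher and 2.78% lower. Without NFAT5 1 the median was -0.30, without CA-RIT NFAT1 2 it was -0.03, without CA-RIT NFAT1 9 it was -0.40 and without NFAT5 8 it was -0.07. With the length trend removed it was -0.02, with 35 of 84 positive, beside 0.01 for all genes. Over all 10 libraries it was -0.24, with 0 members called or, at an unadjusted p below 0.05, 0 members against 1.31% of genes.

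The leading lower members here were Rps27 (-0.44 ± 0.23), Rps29 (-0.41 ± 0.26), Rps21 (-0.55 ± 0.35), Rpl39 (-0.33 ± 0.25) and Rpl28 (-0.36 ± 0.28), each with an adjusted p of 1 in edgeR. Their transcripts, from 347 to 606 bases, are among the shorter of the members or near the median. Rps29, at 238, 351 and 395 CPM with NFAT5 and at 199, 247 and 303 CPM with CA-RIT NFAT1, overlapped between the groups. On the higher side were Rpl4 (0.04 ± 0.18), Rpl13 (0.03 ± 0.25), Rpl3 (0.02 ± 0.22) and Rpl17 (0.02 ± 0.28), with Rpl39l, which rests on a few reads. Across the 84 members the fold change correlated with transcript length at a Spearman rho of 0.60 in this comparison, against 0.16 across all genes, and at -0.05 after the length trend was removed. The points share libraries. Against eGFP, rho across the members was -0.32 with NFAT5 and -0.05 with CA-RIT NFAT1, beside 0.24 and 0.33 across all genes.

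Members with well-known roles gave the same picture of overlap between groups. The stalk proteins, which recruit elongation factors to the large subunit, are encoded by Rplp0, Rplp1 and Rplp2. Rplp0 was at 1987 and 1470 CPM with eGFP, at 1494, 1924 and 2250 CPM with NFAT5 and at 1310, 1612 and 2251 CPM with CA-RIT NFAT1. Against eGFP the fold changes of the 3 stalk genes ran from 0.01 to 0.16 with NFAT5 and from -0.16 to -0.13 with CA-RIT NFAT1. Rps6, whose protein is phosphorylated downstream of mTORC1, was at 855 and 568 CPM with eGFP, at 547, 589 and 683 CPM with NFAT5 and at 554, 540 and 624 CPM with CA-RIT NFAT1. It had -0.35 ± 0.25 with NFAT5 and -0.45 ± 0.25 with CA-RIT NFAT1. Rps3, a protein of the message entry site, had -0.38 ± 0.32 and -0.51 ± 0.32.

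Rpl5 and Rpl11 encode the proteins that, with 5S RNA, can bind MDM2 and stabilise p53. Rpl11 was at 265 and 223 CPM with eGFP, at 212, 237 and 253 CPM with NFAT5 and at 184, 196 and 260 CPM with CA-RIT NFAT1 (-0.17 ± 0.24 and -0.32 ± 0.24). Rpl5 had -0.07 ± 0.40 and -0.11 ± 0.40 on few reads. Of the p53 pathway, Cdkn1a, which encodes the cell cycle inhibitor p21, was at 344 and 145 CPM with eGFP, at 152, 79.8 and 94.9 CPM with NFAT5 and at 73.5, 99.3 and 116 CPM with CA-RIT NFAT1. Its log2 fold changes were -1.31 ± 0.43 (adjusted p = 0.654, edgeR) and -1.49 ± 0.43 (adjusted p = 0.679, edgeR). Mdm2 was at 47.2 and 115 CPM with eGFP, at 101 to 123 CPM with NFAT5 and at 97.8 to 104 CPM with CA-RIT NFAT1. Trp53 was at 111 and 119 CPM, at 113 to 139 CPM and at 131 to 154 CPM in the same order. These genes were tested with the surveillance genes, of which 0 of 9 passed in any comparison. In each comparison with eGFP, 7 of the 9 were positive and 2 negative, Cdkn1a among the negative.

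Among the paralogs, Rps27l, a p53-responsive relative of Rps27, was at 309 and 173 CPM with eGFP, at 155, 190 and 257 CPM with NFAT5 and at 124, 172 and 224 CPM with CA-RIT NFAT1. It gave 141 to 304 reads per 100 of Rps27 in the 8 libraries. Rpl22l1, a paralog that can take the place of Rpl22, gave 126 reads per 100 of Rpl22 in eGFP control 3 and 78.8 to 94.5 in the other 7. Rpl36al gave 748 reads per 100 of Rpl36a in eGFP control 3 and 425 to 522 in the other 7. For both pairs the control library 3 was high and the remaining control lay within or near the range of the vector groups. Rpl7l1 gave 12.7 to 21.2 reads per 100 of Rpl7. The retrogene Rps27rt took 146 to 256 reads per 100 of Rps27, a split that is uncertain because the transcripts are close copies.

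The other genes of the pathway also gave no call: 0 genes passed in any list and comparison. Fau had a log2 fold change of -0.43 ± 0.26 with NFAT5, -0.58 ± 0.26 with CA-RIT NFAT1 (both against eGFP) and -0.15 ± 0.23 between the factors. Translation factors with TOP messages (19 genes) had medians of -0.21, -0.26 and -0.05 in the same order, with 4, 5 and 4 positive. Ribosome biogenesis factors (40 genes) had -0.21, -0.20 and -0.02, with 14, 13 and 17 positive. Genes of RNA polymerase I, which makes ribosomal RNA, had -0.28, -0.33 and -0.09 over 15 genes. Mitochondrial ribosomal protein genes had -0.36, -0.43 and -0.10 over 78 genes. These medians lie on the same side as those of the members, in comparisons that share libraries.

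Regulators of the pathway had medians of 0.05, 0.10 and -0.10 over 19 genes. Larp1, which encodes the TOP-binding repressor, was at 59.0 and 93.6 CPM with eGFP. It was at 148, 142 and 106 CPM with NFAT5 and at 130, 180 and 129 CPM with CA-RIT NFAT1. Every NFAT5 and CA-RIT NFAT1 library thus lay above both controls, as for 14.2% of all genes in each comparison with eGFP. The log2 fold changes of Larp1 were 0.69 ± 0.28 (adjusted p = 0.654, edgeR) and 0.83 ± 0.28 (adjusted p = 0.679, edgeR). Eif4ebp2, which encodes a repressor of eIF4E, was at 17 and 19.3 CPM with eGFP. It was at 28.2, 43.8 and 51.3 CPM with NFAT5 (1.08 ± 0.38, adjusted p = 0.654, edgeR). With CA-RIT NFAT1 it was at 25.8, 34.4 and 22.1 CPM. These libraries too lay above both controls, against 14.2% of all genes in each comparison with eGFP. Myc, which drives ribosome production, had -0.45 ± 0.34 with NFAT5. It was at 61.7 and 70.7 CPM with eGFP, at 35.6 to 78.5 CPM with NFAT5 and at 57.1 to 77.7 CPM with CA-RIT NFAT1. SnoRNA host genes, whose own messages carry TOP tracts, had medians of -0.07, -0.28 and -0.12 over 7 genes, and the surveillance genes 0.34, 0.23 and -0.00 over 9.

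Ribosomal protein genes have many near-identical processed pseudogenes, and Salmon divides reads between matching transcripts. By sequence, 1077 pseudogenes matched 81 of the members, at no less than 90% identity over no less than 70% of the pseudogene. For 8 members more than 50% of the joint reads lay on pseudogenes, and for 46 fewer than 5%. Rpl5 and Rpl12 led, with 93.3% and 93.2% of joint reads on pseudogenes. Gm15500, 100% identical to Rpl5 over the match, was at 576 and 319 CPM with eGFP while Rpl5 itself was at 27.4 and 27.8 CPM. Gm10275, a match for Rpl12, was at 234 and 159 CPM against 22.2 and 13.7 CPM. The low TPM of Rpl5 and Rpl12 given above is thus the level of the reads left to the gene. Next came Rps12 (73.4%), Rps23 (64.5%), Rpl27a (64.0%), Rpl28 (56.2%), Rps13 (55.4%) and Rps18 (50.4%). Adding the pseudogene reads to the members moved the medians of the 3 comparisons to -0.14, -0.33 and -0.19, with 0 calls.

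Reads were also divided among transcript types of the members. Transcripts of a gene can share sequence, so these shares are Salmon's estimates and do not establish how much of the RNA was non-coding. In the 8 libraries, 85.4% to 86.6% of member reads lay on transcripts annotated as protein coding, 5.81% to 6.34% on targets of nonsense-mediated decay, 4.36% to 5.06% on retained introns and 3.00% to 3.53% on other processed transcripts. In NFAT5 5 the exact 95% binomial interval of the protein-coding share was 85.3% to 85.5%, for counting error only. The retained-intron share was 4.36% and 4.58% with eGFP, 4.61%, 5.04% and 5.06% with NFAT5 and 4.55%, 4.58% and 4.56% with CA-RIT NFAT1. NFAT5 libraries were thus the highest, with NFAT5 1 close to the others, and no test was made. Over 83 members the median share on types other than protein coding was 6.77%, and 39 had less than 5%. For 10 members it exceeded 50%. Rps16 had 93.3% (92.1% to 94.6%), mostly on a retained-intron transcript, Rpl35 84.1% and Rps18 74.3%, and Rpsa, which encodes the laminin receptor protein of the small subunit, had 59.9% (57.9% to 61.9%). Rpl27a had 82.0% in eGFP control 3 and 60.5% to 72.4% in the other 7.

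CA-RIT NFAT1 10, the library without CD8 transcripts, had nearly the usual total but a different distribution among the members. Of the 86, 22 lay below the range of the 8 libraries, 9 above and 55 within it. Rpl3, whose protein reaches towards the peptidyl transferase centre, was at 161 CPM against 793 to 1164 CPM. Rpl3-ps1, a pseudogene 99.8% identical to Rpl3, was at 857 CPM there and at 23.7 to 88.9 CPM in the 8 libraries. With matched pseudogenes added, Rpl3 was at 1020 CPM, inside the range. Rplp0 had its own reads within range at 1370 CPM, and its pseudogenes Gm8730 and Gm9625 were at 855 and 332 CPM against at most 47.5 and 17.7 CPM, so that the sum, 2578 CPM, lay above the range of 1362 to 2275 CPM.

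A further 4 members below the range also had a pseudogene far above it. Among these were Rpl21, with Gm10240 at 516 CPM against 14.2 to 92.9 CPM, Rps7, with Gm6472 at 300 CPM against 39.6 to 108 CPM, and Rpl29, with Gm13841 at 217 CPM against 0.695 to 18.6 CPM. With pseudogene reads added, Rps7 (446 CPM) and Rpl29 (321 CPM) lay within the range and Rpl21, at 634 CPM against 275 to 436 CPM, above it. Of the 6 members more than 2-fold below the median of the 8 libraries, Rpsa and Rps27rt remained so. Among the 8 libraries, eGFP control 3 had the highest value of Rpl3-ps1 and eGFP control 6 the lowest, while the 14 mast cell and P511 markers summed to 263 and 58.3 CPM in these controls, in that order, and to 82.0 to 272 CPM in the other 6 libraries. Single markers differed in order. Of the 10 with reads in the 8 libraries, 3 were highest in eGFP control 3 and 3 in NFAT5 8. Those of eGFP control 3 were Cpa3 (66.1 CPM), Trap1a (24.9 CPM) and Mcpt8 (14.8 CPM), while Kit (4.41 CPM) and Gata2 (6.96 CPM) were lowest there. In eGFP control 6, Cpa3 (11.8 CPM), Cma1 (17.1 CPM) and Trap1a (2.67 CPM) were lowest. The part of the other cells in these pseudogene reads was not tested. Of the 40 pseudogenes with the highest levels, 15 lay above the range of the 8 libraries in CA-RIT NFAT1 10, 10 below it and 15 within it. Among those below, Rpl15-ps3, 100% identical to Rpl15 over the match, was at 4.77 CPM in CA-RIT NFAT1 10 and at 135 to 215 CPM in the 8 libraries, while Gm10020, another match for Rpl15, was at 194 CPM against at most 15.7 CPM.

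Other differences of CA-RIT NFAT1 10 remained after the pseudogene reads were added. Rpsa was at 194 CPM against 875 to 1592 CPM, and at 559 CPM against 911 to 1620 CPM with its pseudogenes. Rpl7l1, a relative of Rpl7, was at 294 CPM against 91.5 to 131 CPM. Rpl3l was at 13.9 CPM, from 453 reads, and had 0 reads in each other library. Ribosome biogenesis factors summed to 10155 CPM against 3005 to 4737 CPM, while the ribosomal protein genes, at 27218 CPM, stayed within the 25064 to 40169 CPM of the 8 libraries. This is a single library, and no test was made.

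**Figure D5:**
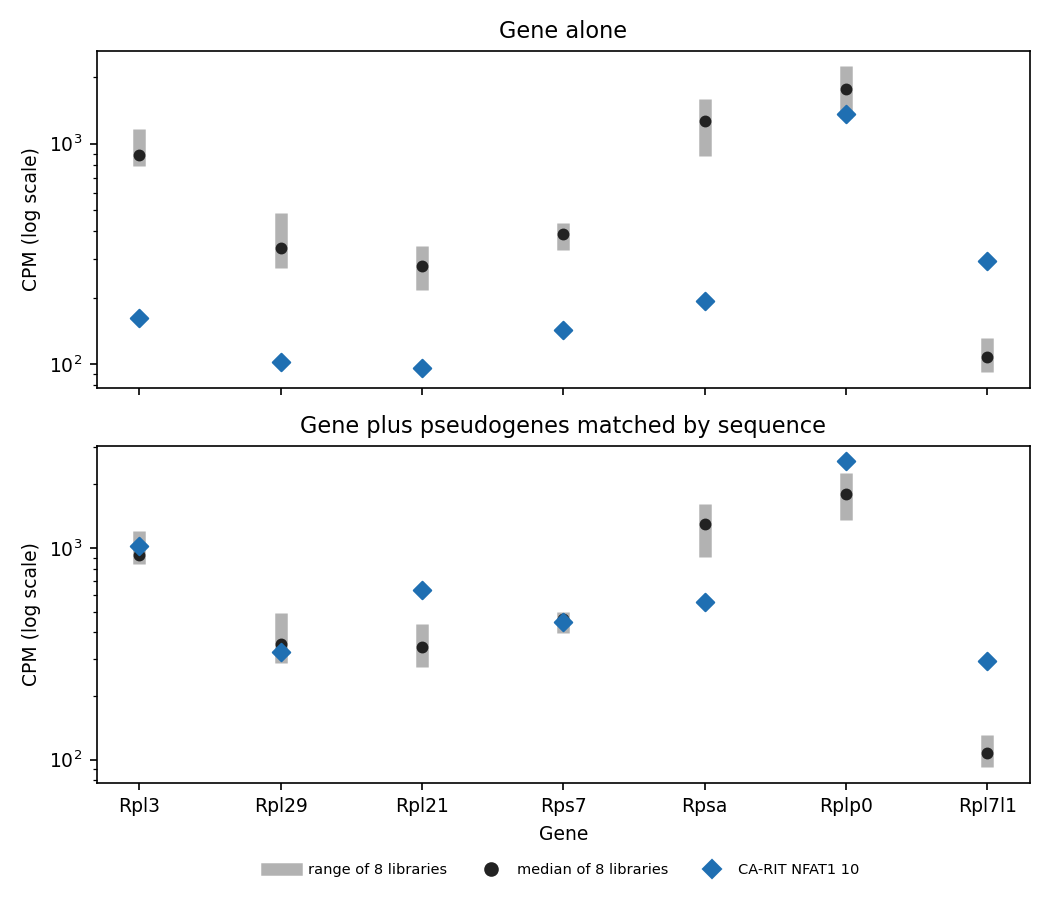
Levels (CPM, log scale) of 7 genes in CA-RIT NFAT1 10 (diamonds) and in the 8 libraries of the comparisons (bars, range; points, median), for the gene alone above and with reads of sequence-matched pseudogenes added below. Rpl3 goes from 161 CPM, under the range, to 1020 CPM, inside it, and Rpsa stays under the range.

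eGFP control 7 held too few reads to place most members. There, 61 of the 86 had 0 reads, and a count of 0 among 51104 reads allows up to 58.7 CPM. Members took 6549 reads, or 12.8% (exact 95% interval 12.5% to 13.1%, counting error only). The 5 highest members made up 97.3% of them, with Rpl41 (1217 reads), Rpl37a (494) and Rps3a1 (429) among these.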

How the data were processed

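RNA of sorted cells was sequenced after Clontech library preparation, and the authors quantified transcripts with Salmon 0.14.1 (builds mm10 and GRCm38.p6), per the submitters' processing notes. The deposited tables give estimated counts, TPM and effective lengths per transcript, per the file headers. Of 140919 transcripts, 139966 were matched to GENCODE M21, a release inferred from lengths that were identical in 99.9%. The other 953 held at most 0.292% of reads. Estimated counts were summed per gene and rounded, and CPM used all matched genes. The deposited TPM values were summed per gene to set levels of different genes side by side, and the deposited effective lengths, which are neither level nor count, served the length offset alone.

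Genes were tested with edgeR 4.0.16 (R 4.3.3): quasi-likelihood, TMM, default low-count filter, 1 fit over 3 groups, Benjamini-Hochberg adjustment at 0.05 over all genes tested, and 8 libraries. The biological coefficient of variation was 0.725. The fit was tested on simulated data for NFAT5 against eGFP (14473 genes, 200 changed). At a dispersion of 0.4 it called 0% of genes changed by 1 on the log2 scale, 6% at 2, 64% at 4 and 92% at 6, with 1 false call. At a dispersion of 0.05 the shares were 34%, 86%, 98% and 100% in the same order, with 8 false calls. Recovery thus depends on how much a gene varies. Both dispersions lay below the square of the fitted coefficient of variation. The simulated libraries also held no common shift of genes and no length trend. The shares are therefore not recovery rates of these data. Other settings were DESeq2 1.42.0, limma 3.58.1 voom, all 10 libraries, each library left out, other scalings and filters, length offsets, a lowess length trend (span 0.3) and pseudogene reads matched by symbol or by BLAST 2.17.0, the last chosen after seeing the data. Named members were the 5 with the smallest p on each side, paralogs, members with textbook roles, and the extremes of level and spread; beyond these, members at odds in a left-out library or shared with pseudogenes were named after their values were seen. Some members that meet this rule are not reported here by name. The members, lists and the choice of 8 libraries were made with earlier results of these data known. Levels use a pseudocount of 1 CPM on the log2 scale.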

Additional observations from a re-analysis of the deposited data

Results flagged for a closer look

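In the CA-RIT NFAT1 group, the only group with 4 libraries, 45 values of single members and of their summed level were examined for a library far from the other 3, and 4 were found. Chance gives about 1 in 20, a rate that does not apply to 2 of the 4, Rpl39l and Rpl3l, whose other 3 libraries are tied at 0 reads. CA-RIT NFAT1 9 stood above the other 3 for Rpl11, at 260 CPM, for Rpl27a, at 103 CPM, and for Rpl39l, at 0.461 CPM. CA-RIT NFAT1 10, the library with almost no CD8 transcripts, stood above the others for the muscle paralog Rpl3l, at 13.9 CPM.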

How the results depend on the processing

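No paired analysis was possible because the groups share no replicate numbers. With 1 library left out, the median log2 fold change of the members ran from -0.40 to 0.22 for NFAT5 against eGFP, from -0.57 to 0.03 for CA-RIT NFAT1 against eGFP and from -0.40 to -0.03 between the factors. Members called lower ran from 0 to 4 and from 0 to 9 in the comparisons with eGFP, with every call in the fits without eGFP control 6. Removing the length trend gave a median of 0.13 for CA-RIT NFAT1 against eGFP. The mean share of the members was 6.89%, 7.19% and 6.67% by TPM for eGFP, NFAT5 and CA-RIT NFAT1, 6.56% for eGFP with all 10 libraries, and 3.74% for NFAT5 with sequence-matched pseudogene reads. The cause of these changes was not tested, apart from TPM, which divides by length, and eGFP control 7, which enters at 12.8%. A tract within 2 bases of the start was found in 33.3% of members. The other 201 values of medians, calls, shares and tracts moved by less than the spread between libraries or left the count of calls as it was. For named members without eGFP control 3, 21 of 42 changed sign with NFAT5 and 18 of 42 with CA-RIT NFAT1. Depth limits eGFP control 7 alone, and 2 usable controls limit both comparisons with eGFP.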
